A study of Mus musculus with 4 samples.

Results

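Serping1, Cd55, Cr1l and Cd59a encode 4 proteins that hold back the complement cascade. All 4 members, chosen by symbol, were present among the 4099 complete gene rows of the count table, and their UMIs (unique molecules counted per gene and cell) were followed over 23 deposited cell type names. The cells came from tumours that the 4T1 line, a mouse mammary carcinoma, formed in BALB/c mice. The tumour cells were either wild-type (labelled CON) or Mif-depleted (labelled sgMif). Mif encodes macrophage migration inhibitory factor. Each of the 2 groups had 2 samples, described as biologically independent and each dissociated from 3 tumours. Red cells were lysed, dead cells removed and CD45-positive, propidium iodide-negative cells sorted before droplet (10x Genomics) sequencing. The age of the mice is not given in the sources used here, and sgMif is not spelled out there.

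Complement is a cascade of plasma proteases that coats targets with fragments of C3, recruits phagocytes and ends in a membrane pore. Host cells hold it back at separate steps. Serping1 encodes C1 inhibitor, a secreted serpin that blocks the proteases C1r and C1s, the mannose-binding lectin-associated proteases and also plasma kallikrein. Cd55 encodes decay-accelerating factor, a membrane-anchored protein that dissociates the C3 and C5 convertases. Cr1l encodes Crry, a rodent membrane regulator that both accelerates convertase decay and serves as a cofactor for the cleavage of C3b and C4b by factor I. Cd59a encodes a membrane-anchored protein that keeps C9 from completing the membrane attack complex.

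Barcodes end in a suffix, and no label or header ties a suffix to a sample. Control and Mif-depleted tumours were therefore not compared, and the effect of Mif depletion on the 4 genes was not analysed here. Counts were used for 13162 cells of suffix 1 (29567302 UMIs, median 1224.5 per cell) and for 3221 cells of suffix 2 (8578852 UMIs, median 1712), which were 26.9% of the annotated cells of that suffix. These totals cover the 4099 genes only, and 12 barcode sequences occurred in both suffixes. A level is the number of UMIs of a gene per 10000 counted UMIs, summed over the cells of a name within a suffix, so it compares cell types for 1 gene and not genes with each other. Square brackets hold exact 95% intervals, which cover counting error only. Each suffix is taken here as 1 library, which no label states. No p-value is given because the cells of a suffix do not stand for separate tumours. A gene is said to be called higher or lower in a cell type where the whole interval of its ratio to all other cells of the suffix lay beyond 2-fold. Calls were made for genes with 50 or more UMIs, which gave 3514 genes in suffix 1 and 3087 in suffix 2.

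The genes lie on chromosomes 1 and 2 (GRCm38, GENCODE M21). Cd55 (chr1:130439027-130462744, minus strand) lies 16017 bases from its copy Cd55b, which was not analysed here. Cr1l (chr1:195097382-195131586, minus strand) lies 5224 bases from the complement receptor gene Cr2. Serping1 occupies chr2:84765387-84775444 on the minus strand. Cd59a (chr2:104095801-104115354, plus strand) lies 4613 bases from its copy Cd59b. Of the 50-base words in annotated Cd55 transcripts, 8% also occur in Cd55b, and 11.4% of those in the last 500 bases do, so a part of the Cd55 count cannot be told apart from Cd55b. For Cd59a and Cd59b these shares are 3.87% and 0.882%, and Cr1l and Cr2 share 0 words.

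The promoters of Cd55, Cr1l and Cd59a are shown because the promoter set used held no entry for Serping1. These 3 genes differed in how they spread over the cell types, and a link between promoter and spread was not tested. Cr1l was counted under all 23 names in suffix 1, Cd55 under all but 1 and Cd59a under all but 6. Each run is the 250 bases before the RefSeq start on GRCm38.p6, written 5′ to 3′ on the strand of the gene. Cd55 comes from chr1:130462745-130462994, Cr1l from chr1:195131571-195131820 and Cd59a from chr2:104095551-104095800. Capitals mark the GC box GGGCGG, read here as its reverse complement in Cd55, and the CACC-type word GGGTGTGG in Cd59a.
Cd55: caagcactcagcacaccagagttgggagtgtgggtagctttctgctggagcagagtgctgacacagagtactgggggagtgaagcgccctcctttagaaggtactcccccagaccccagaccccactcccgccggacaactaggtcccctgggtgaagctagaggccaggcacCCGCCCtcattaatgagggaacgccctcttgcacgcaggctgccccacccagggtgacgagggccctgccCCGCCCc
Cr1l: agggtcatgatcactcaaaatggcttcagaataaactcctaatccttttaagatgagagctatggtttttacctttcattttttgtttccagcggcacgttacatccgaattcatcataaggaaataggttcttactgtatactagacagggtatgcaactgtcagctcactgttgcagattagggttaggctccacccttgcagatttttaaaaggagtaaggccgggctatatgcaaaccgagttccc
Cd59a: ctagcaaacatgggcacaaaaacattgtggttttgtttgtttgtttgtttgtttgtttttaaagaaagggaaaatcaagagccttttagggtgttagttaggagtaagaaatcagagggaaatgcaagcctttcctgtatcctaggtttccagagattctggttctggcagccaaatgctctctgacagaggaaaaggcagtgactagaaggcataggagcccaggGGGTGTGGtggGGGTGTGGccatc

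The 3 windows differ in base composition. Cd55 has a GC content of 64% with 8 CpG, Cr1l 41.6% with 5 CpG and Cd59a 44.8% with 0 CpG, against a median of 52.4% and 6 CpG over 32851 RefSeq promoter windows of the same length. The GC box occurs in Cd55 at 2 places and in 32.7% of all windows. GGGTGTGG occurs in Cd59a at 2 places and in 3.2% of all windows. Cd59a also holds the core of the interferon-stimulated response element at 1 place, as 2.98% of all windows do. All motifs were searched on both strands, and none of the matches overlap. The TATA box TATAAA, the box CCAAT, the AP-1 word TGANTCA and the interferon word TTCNNNGAA were in none of these 3 windows and in 12.4%, 33.8%, 6.75% and 7.02% of all windows. In a global alignment the Cd55 window was identical to that of Cd55b at 74.4% of paired bases, with 169 identical bases and 46 gaps in 273 columns. For Cd59a and Cd59b it was 67.6%, with 138 identical bases and 92 gaps in 296 columns. Unrelated windows were not aligned for comparison, so these values are not read as a shared origin of the promoters.

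The 4 regulators had 4 different distributions over the tumour's cells. Serping1 was held almost wholly by fibroblasts, Cd55 was highest in B cells and naive CD4 T cells, and Cr1l was counted in all cell types of 50 or more cells within a 3.47-fold range in suffix 1. Cd59a was highest in fibroblasts, in cells named cDC1_Clec9a and in cells named pDC. In suffix 1, 99.3% of Serping1 UMIs lay in fibroblasts, while 55.8% of Cd55 UMIs lay in B cells. Of Cr1l UMIs, 31.6% lay under the macrophage names and 27.4% in neutrophils. Of Cd59a UMIs, 30.9% lay in cDC1_Clec9a, 21.6% in pDC and 19.4% in fibroblasts.

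**Figure D1:**
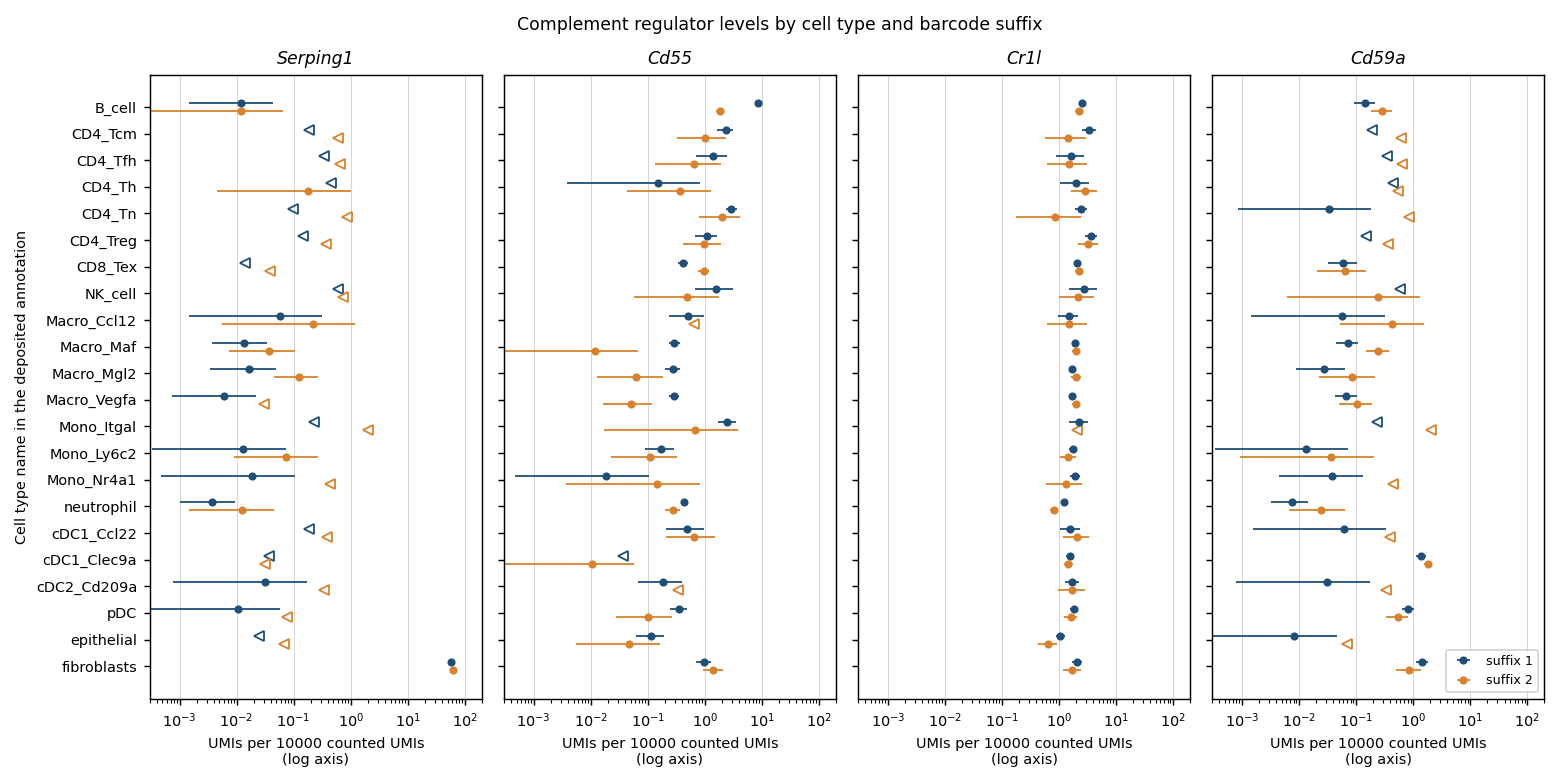
Level of each regulator (UMIs per 10000 counted UMIs, log axis) under 22 of the 23 cell type names, with suffix 1 in blue and suffix 2 in orange. Points are levels with exact 95% Poisson bars, clipped at the left edge of the axis, and open triangles mark 0 UMIs at the level that 3 UMIs would give. Serping1 stands at 57.6 and 61.5 in fibroblasts and at most at 0.217 elsewhere, while the filled points of Cr1l stay between 0.645 and 3.65.

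**Figure D2:**
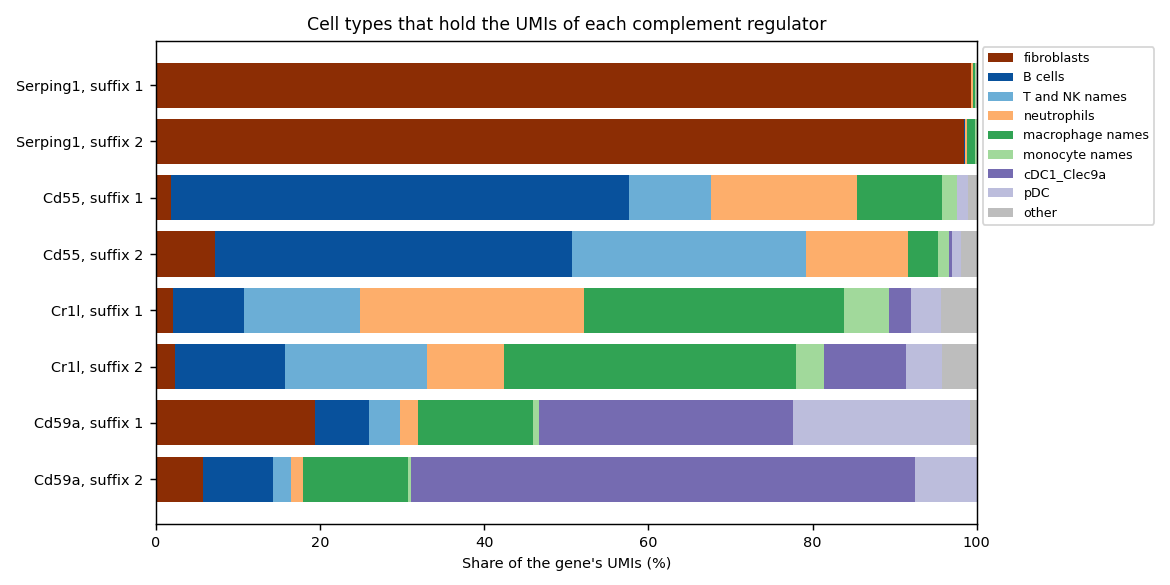
Share of the UMIs of each regulator (horizontal axis, percent) by group of cell type names (colour), with 1 bar per gene and suffix. Fibroblasts fill 99.3% and 98.4% of the Serping1 bars, B cells 55.8% and 43.5% of the Cd55 bars, and cDC1_Clec9a 30.9% and 61.4% of the Cd59a bars.

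Serping1 was a fibroblast transcript in both suffixes. It stood at 57.6 [55.5, 59.7] in the 140 fibroblasts of suffix 1 and at 0.00688 in all other cells, with 2839 of its 2859 UMIs in fibroblasts. In the 47 fibroblasts of suffix 2 it stood at 61.5 [58.0, 65.2] against 0.0214, with 1143 of 1161 UMIs. This made a log2 ratio of 13.03 [12.40, 13.74] for suffix 1 and 11.49 [10.82, 12.25] for suffix 2. The fibroblast levels of the suffixes did not differ beyond counting error (log2 ratio -0.10 [-0.20, 0.00]), and the smaller ratio of suffix 2 goes with its higher level in the other cells. Serping1 and Cd59a, 2 of the 4 members, were called higher in fibroblasts of suffix 1, where 16.7% of the genes tested were. In suffix 2 Serping1 and Cd55 were, beside 10.8% of the genes tested.

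Outside the fibroblasts Serping1 was counted as single molecules, except in 1 cell of suffix 2. In suffix 1 the other 20 UMIs lay in 20 cells, and in suffix 2 the other 18 UMIs lay in 13 cells, 6 of them in 1 Macro_Mgl2 cell. It had 0 UMIs under 12 names in suffix 1 and under 14 in suffix 2. None of the 499 cells named epithelial in suffix 1 had a UMI. At a floor of 3 counts this allows a share of up to 0.601% of cells with a UMI, and it does not limit the share that expresses the gene. Neutrophils, with a median of 1120 counted UMIs, held it in 0.0700% of cells, against 70.7% of fibroblasts with a median of 2301. After thinning each cell to 500 UMIs, which left out 36 of the 140 fibroblasts of suffix 1 and 10 of the 47 of suffix 2, the shares of fibroblasts were 67.3% and 73.0%. Apart from fibroblasts at the top in suffix 1, no neighbours in the order of Serping1 levels differed beyond counting error (21 pairs in suffix 1, and 14 in suffix 2, whose order leaves out the 47 fibroblasts).

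Single fibroblasts varied widely. The median fibroblast held 5 Serping1 UMIs in suffix 1 and 11 in suffix 2, and the highest held 168 and 142. Of the 140 fibroblasts of suffix 1, 58 held 10 or more, as did 25 of the 47 of suffix 2. The 41 fibroblasts of suffix 1 without Serping1 were shallow, with a median of 349 UMIs against 4661 in the 99 with it. They also differed in marker genes. The 8 measured fibroblast markers, among them the collagen genes Col3a1 and Col5a2 and the matrix gene Fbn1, summed to 52.5 in cells without Serping1 and 853 in cells with it. The 5 measured endothelial markers, among them Emcn and Egfl7, summed to 70.8 and 4.23. In suffix 2 the same sums were 24.2 and 955 for fibroblast markers and 123 and 2.18 for endothelial markers, in 14 and 33 cells.

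Some cells under the fibroblast name carried more endothelial than fibroblast marker UMIs, 14 in suffix 1 and 7 in suffix 2. Serping1 had 4 UMIs in the 14 cells and 0 in the 7, levels of 1.84 and 0, against 60.1 and 64.5 in the remaining fibroblasts. Without these cells the log2 ratio of suffix 1 was 13.09 [12.46, 13.81]. All 8 measured fibroblast markers, of 15 on the list, were called higher under this name in both suffixes, and Ptprc, which encodes CD45, stood at 3.55 and 1.88 there against 20.7 and 18.3 in all other cells. The sort selected CD45-positive cells, so these fibroblasts are those that passed it.

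**Figure D3:**
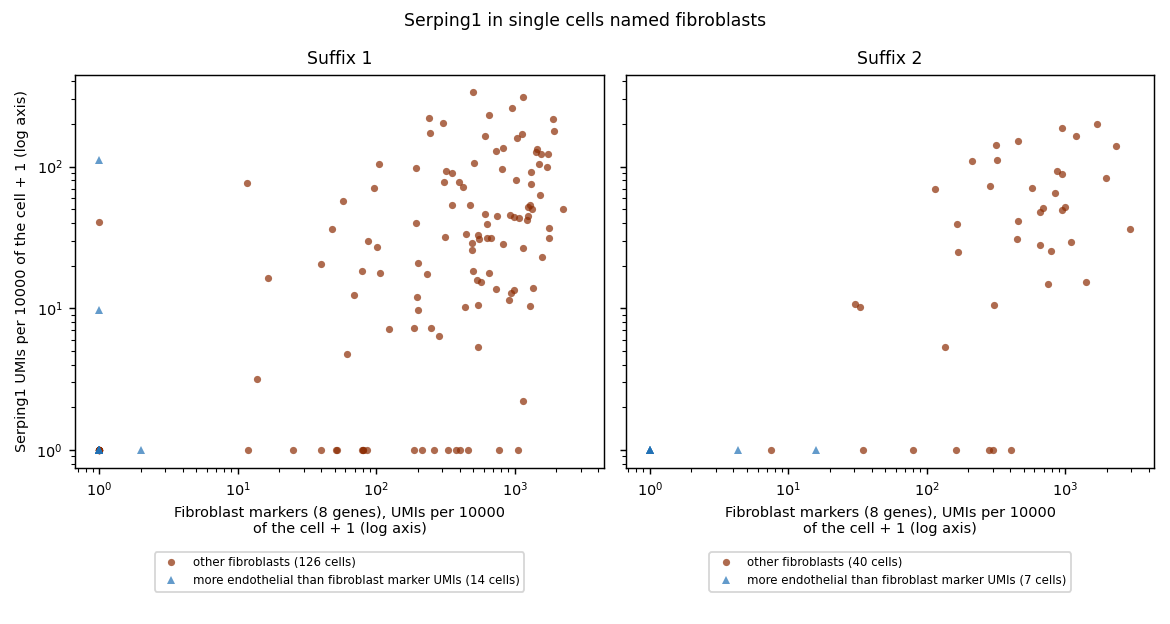
Each point is 1 cell named fibroblast: the horizontal axis gives the summed level of 8 fibroblast markers and the vertical axis that of Serping1, both in UMIs per 10000 UMIs of the cell plus 1, on log axes. Triangles are the 14 and 7 cells with more endothelial than fibroblast marker UMIs, 2 of which hold Serping1, and cells at the bottom edge hold none.

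Cd55 was highest in B cells among names with 50 or more cells. It stood at 8.73 [8.28, 9.19] in the 1785 B cells of suffix 1 and 0.410 in all other cells, a log2 ratio of 4.41 [4.30, 4.52]. In the 420 B cells of suffix 2 it stood at 1.86 [1.58, 2.17] against 0.264, a log2 ratio of 2.82 [2.51, 3.12]. Of the 4 members, 1 (Cd55) was called higher in B cells of both suffixes, beside 16.1% of the genes tested in suffix 1 and 7.06% in suffix 2. A Cd55 UMI was found in 45.2% of B cells in suffix 1 and 23.1% in suffix 2, and in 36.8% and 14.7% after thinning. For comparison, 1.80% of cells named epithelial in suffix 1 held 1, at a median of 826 UMIs against 558 in B cells.

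The B cell level of Cd55 was higher in suffix 1 than in suffix 2 by a log2 ratio of 2.23 [1.99, 2.48], and in suffix 1 it was lower in each deeper class of cells. In suffix 1 it was 20.2 [18.5, 22.0] in B cells with under 500 counted UMIs, 14.8 from 500 to under 1000, 4.45 from 1000 to under 2000 and 0.954 [0.730, 1.23] from 2000 upward. In suffix 2 these levels were 1.77 [0.365, 5.17], 9.03, 2.21 and 0.775. Between the suffixes the log2 ratio was 3.52 [1.96, 5.80] under 500 UMIs, where suffix 2 had 3 Cd55 UMIs in 60 cells. It was 0.72 [0.38, 1.07] from 500 to under 1000 UMIs, 1.01 [0.39, 1.67] from 1000 to under 2000 and 0.30 [-0.27, 0.88] from 2000 upward. B cells with 2000 or more UMIs made up 9.30% of B cells in suffix 1 and 37.4% in suffix 2. In molecules per cell the range was narrower. A B cell of suffix 1 held on average 0.786, 0.967, 0.628 and 0.367 Cd55 UMIs in these 4 classes of depth.

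Other genes moved with depth as well. The 4 measured B cell markers, among them Pax5, Cr2 and Bank1, summed to 53.1, 57.1, 35.5 and 17.0 in suffix 1, while 7 cell cycle genes such as Pcna and Stmn1 summed to 13.6, 10.7, 22.1 and 77.6. In the 60 B cells of suffix 2 with under 500 UMIs the B cell markers stood at 11.2 and macrophage markers at 152. B cells with 5 or more macrophage marker UMIs held Cd55 at 2.71 (115 cells) against 9.92 in the others of suffix 1, and at 0.998 (111 cells) against 2.41 in suffix 2. The part of depth, cell cycle or macrophage RNA in the Cd55 difference was not tested. With the complement receptor gene Cr2 present or absent, B cells of suffix 1 held Cd55 at 7.46 [6.81, 8.16] and 9.54 [8.95, 10.2], and those of suffix 2 at 2.06 [1.60, 2.62] and 1.73 [1.39, 2.12].

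**Figure D4:**
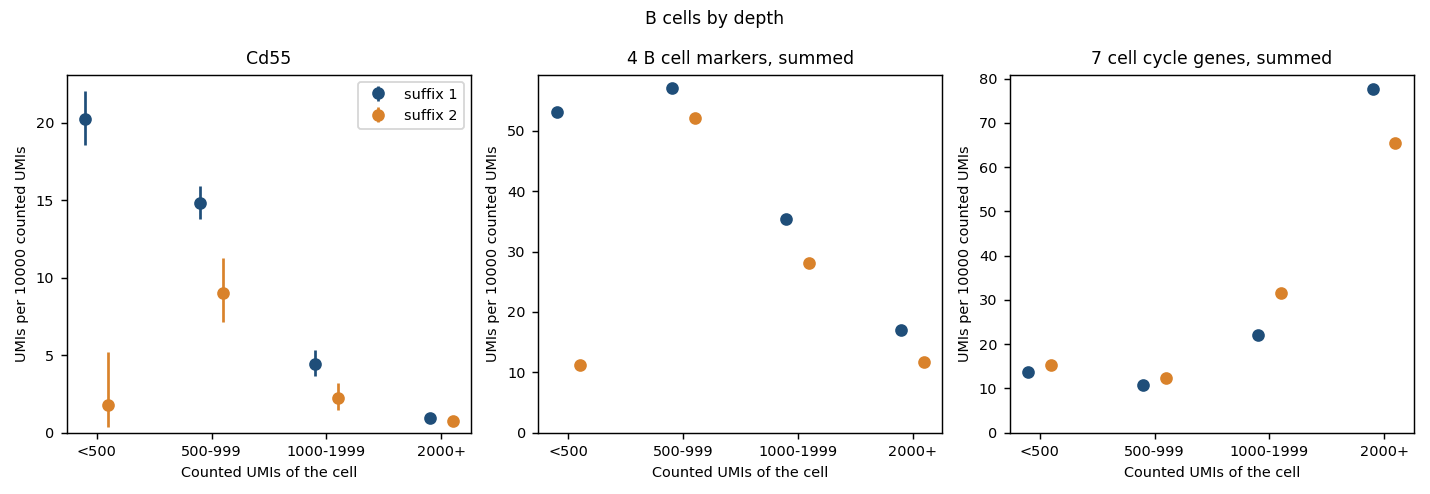
B cells in 4 classes of counted UMIs per cell (horizontal axis): from left to right the level of Cd55 with exact 95% bars, of 4 summed B cell markers and of 7 summed cell cycle genes, in UMIs per 10000 counted UMIs, suffix 1 in blue and suffix 2 in orange. Cd55 falls from 20.2 to 0.954 across the classes of suffix 1 while the cell cycle genes rise from 13.6 to 77.6.

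Among T cells, Cd55 was highest in the naive name CD4_Tn. It stood at 2.92 [2.34, 3.60] in 462 CD4_Tn cells of suffix 1, a log2 ratio of 1.77 [1.45, 2.08] to other cells, and this 1 of 4 members was called higher there beside 10% of the genes tested. In the 37 CD4_Tn cells of suffix 2 it stood at 1.98 [0.796, 4.08], level with the B cells of that suffix, and was not called. The central memory name CD4_Tcm stood at 2.31 [1.62, 3.18] and 1.02 [0.330, 2.37], and the regulatory name CD4_Treg at 1.08 and 0.966. B cells stood above CD4_Tn beyond counting error in suffix 1 (log2 ratio 1.58 [1.27, 1.91]), and this was the only such pair of neighbours among 21, while in suffix 2 there was none among 14. In exhausted CD8_Tex cells Cd55 stood at 0.421 in suffix 1 and 0.960 in suffix 2, a log2 ratio between suffixes of -1.19 [-1.65, -0.73]. Of the 4 members, Cd55 alone was called higher in CD8_Tex of suffix 2, where 6.32% of the genes tested were.

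Cd55 was low in cells named epithelial and in several myeloid names, and higher in fibroblasts. Its place in neutrophils depended on the scale. Neutrophils stood at 0.428 and 0.278, and without S100a8 and S100a9, which fill most of their counted UMIs, at 1.03 and 0.656. Without these genes fibroblasts stood at 0.978 and 1.41, so neutrophils were not below them in suffix 1. Cells named epithelial stood at 0.115 and 0.0460, and fibroblasts at 0.953 [0.700, 1.27] and 1.40 [0.914, 2.05], of which the second was called higher. The 41 Mono_Itgal monocytes of suffix 1 stood at 2.45 [1.68, 3.46]. Their 4 B cell markers summed to 6.90, against 37.6 in B cells. They held 0.356 [0.230, 0.538] Cd55 UMIs per B cell marker UMI, against 0.232 [0.219, 0.246] in B cells. Whether B cell RNA contributed to their count was not tested. In cDC1_Clec9a there were 0 UMIs in 165 cells of suffix 1, at least 24.6-fold lower than in other cells at a floor of 3 UMIs, and 1 UMI in 157 cells of suffix 2. These cells were deep, with medians of 4857 and 6220 UMIs. Mono_Nr4a1 monocytes held 1 UMI in each suffix.

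Cd55 under the macrophage names went with B cell markers. It stood at 0.310 in the 2136 cells with macrophage names in suffix 1 and 0.0516 in the 647 of suffix 2. In suffix 1, 187 of 269 UMIs lay in the 287 of these cells that also held a B cell marker UMI, a level of 1.23 [1.06, 1.42] against 0.115 [0.0911, 0.142] in those without. The number of Cd55 UMIs per B cell marker UMI was 0.244 [0.190, 0.309] in Macro_Maf, 0.226 [0.117, 0.408] in epithelial cells and 0.232 [0.219, 0.246] in B cells themselves. It was 3.95 [3.22, 4.88] in neutrophils, 29.3 [9.71, 145] in CD4_Tn and 2.47 [1.42, 4.46] in fibroblasts. Whether free RNA or doublets of B cells contributed to the macrophage and epithelial counts was not tested. In suffix 2, 8 of 13 Cd55 UMIs of the macrophage names lay in the 27 cells with a B cell marker UMI. CD8_Tex cells without a B cell marker UMI stood at 0.253 in suffix 1 and 1.01 in suffix 2.

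Cr1l was present in every cell type with 50 or more cells. In suffix 1 it ranged from 1.05 [0.877, 1.25] in cells named epithelial to 3.65 [2.86, 4.58] in CD4_Treg, a 3.47-fold range over 22 names. In suffix 2 it ranged from 0.645 [0.428, 0.932] in epithelial cells to 3.26 [2.15, 4.74] in CD4_Treg, a 5.06-fold range over 15 names. Regulatory T cells thus stood first and epithelial cells last in both suffixes. The log2 ratio of CD4_Treg to other cells was 1.17 [0.82, 1.50] in suffix 1 and 1.00 [0.39, 1.54] in suffix 2, and none of the 4 members was called higher there, while 9.48% and 5.47% of the genes tested were. Cr1l was called in no name and no direction in either suffix. The share of all genes without any call is not given here, so this is not read as a trait of Cr1l. No neighbours in the order of Cr1l differed beyond counting error, in 21 pairs of suffix 1 and 14 of suffix 2. Neighbours are the closest pairs, and the intervals of CD4_Treg and epithelial cells did not overlap in either suffix.

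The order of Cr1l depends on the scale. In UMIs per cell the log2 ratio of CD4_Treg in suffix 1 was -0.13 [-0.48, 0.20], where its cells hold a median of 812 counted UMIs against 1224.5 over all cells. Neutrophils stood at 1.23 [1.16, 1.29] in suffix 1 and 0.821 [0.687, 0.972] in suffix 2, but at 2.96 and 1.94 without S100a8 and S100a9 among the counted UMIs. Without these genes B cells stood at 2.57 and 2.28, Macro_Maf macrophages at 1.93 and 1.95 and CD4_Treg at 3.67 and 3.27. The central memory name CD4_Tcm, second in suffix 1 at 3.37 [2.53, 4.39], stood at 1.42 [0.572, 2.93] in suffix 2. Over all cells 26.1% held a Cr1l UMI in suffix 1 and 29.9% in suffix 2. In deep cells this share was higher, 63.3% and 69.0% in Macro_Mgl2 with medians of 6227 and 5630.0 UMIs. After thinning, 17.8% and 14.9% of CD4_Treg, 10.9% and 12.8% of B cells and 7.39% and 5.12% of neutrophils held 1.

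Cd59a was a rare transcript with 366 UMIs in suffix 1 and 280 in suffix 2. It stood at 1.38 [1.14, 1.66] in the 165 cDC1_Clec9a cells of suffix 1 and 0.0880 in other cells, a log2 ratio of 3.97 [3.64, 4.30]. In the 157 cDC1_Clec9a cells of suffix 2 it stood at 1.79 [1.53, 2.08] against 0.142, a log2 ratio of 3.66 [3.30, 4.02]. It was the 1 of 4 members called higher there, beside 10.4% of the genes tested in suffix 1 and 8.23% in suffix 2. Serping1 and Cd55 were called lower, beside 10.7% and 19%. The other cells of these ratios include the fibroblasts, and Serping1 was called lower under 20 of the 23 names in suffix 1 and 15 in suffix 2. A Cd59a UMI was found in 38.2% [30.7, 46.1] and 57.3% [49.2, 65.2] of cDC1_Clec9a cells, with at most 5 and 7 UMIs in 1 cell. Thinned to 500 UMIs, 7.33% and 11.04% held 1, and 0.0780% and 0.128% of neutrophils did.

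In fibroblasts the Cd59a level of suffix 1 rested in part on 1 cell. It was 1.44 [1.12, 1.82], a log2 ratio of 3.83 [3.43, 4.20], and 30 of its 71 UMIs lay in 1 fibroblast of 6646 counted UMIs that also held 41 Serping1 UMIs and 1005 fibroblast marker UMIs. Without that cell the level was 0.843 and the log2 ratio 3.05, so that cDC1_Clec9a stood first. In suffix 2 fibroblasts stood at 0.861 [0.492, 1.40], a log2 ratio of 1.45 [0.62, 2.18] that was not called. Cells named pDC stood at 0.821 [0.650, 1.02] in suffix 1 and 0.541 [0.335, 0.826] in suffix 2, with log2 ratios of 3.03 [2.65, 3.40] and 0.77 [0.06, 1.42]. Cd59a was called higher in pDC of suffix 1 only, as the 1 of 4 members, beside 5.98% of the genes tested there, and 0 of 4 were in suffix 2 beside 1.78%. The lower ratios of suffix 2 stand beside a higher level in the other cells, which for fibroblasts was 0.315 against 0.101 in suffix 1, with 61.4% of the Cd59a UMIs of suffix 2 in cDC1_Clec9a.

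The names of these cells could be checked against few of their own markers. Of the 5 plasmacytoid dendritic cell markers on the list none was measured, and of 8 dendritic markers only Batf3 was. Batf3 stood at 0.965 and 0.385 in cDC1_Clec9a, called higher in suffix 1 only. It stood at 0.675 and 0.283 in pDC without a call, and at 9.02 and 6.28 in cells named cDC1_Ccl22. The 5 measured osteoclast markers included the protease gene Ctsk and the proton pump gene Atp6v0d2. They summed to 886 and 1204 in cDC1_Clec9a and to 223 and 289 in pDC, against 4.76 in B cells of suffix 1. Among the remaining names the highest sums were 18.3 in fibroblasts of suffix 1 and 34.7 in epithelial cells of suffix 2. The pDC cells were mixed, at 5.23 and 8.47 below their median of these markers and at 334 and 420 from it upward. All 5 were called higher in cDC1_Clec9a of both suffixes and in pDC of suffix 1, and 1 was in pDC of suffix 2. Within cDC1_Clec9a of suffix 1, Cd59a was higher in cells with more of these markers, while in suffix 2 and in pDC the intervals overlapped. In cDC1_Clec9a cells below and above the median osteoclast marker level it stood at 0.994 [0.710, 1.35] and 1.75 [1.37, 2.20] in suffix 1, and at 1.55 [1.22, 1.95] and 2.03 [1.64, 2.47] in suffix 2. In pDC cells it stood at 0.673 [0.422, 1.02] and 0.897 [0.679, 1.16] in suffix 1 and at 0.323 and 0.643 in suffix 2.

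Lymphocytes, neutrophils and epithelial cells held little Cd59a. B cells stood at 0.145 [0.0929, 0.216] and 0.284 [0.182, 0.422], and Macro_Maf macrophages at 0.0712 and 0.242. Both were higher in suffix 2 beyond counting error, with log2 ratios of suffix 1 to suffix 2 of -0.97 [-1.85, -0.09] and -1.77 [-2.72, -0.81]. Neutrophils held 8 UMIs in 5712 cells and 4 in 925. Cells named epithelial held 1 UMI in 499 cells and 0 in 106. Of the neighbours in the order of suffix 1, fibroblasts and cDC1_Clec9a did not differ beyond counting error (log2 ratio 0.06 [-0.39, 0.50]), while cDC1_Clec9a stood above pDC, pDC above B cells and B cells above Macro_Maf. In suffix 2 cDC1_Clec9a again stood above pDC, and pDC narrowly above B cells (log2 ratio 0.93 [0.01, 1.84]). B cells and Macro_Maf did not differ there beyond counting error (0.23 [-0.69, 1.16]).

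Cd59b, the neighbouring copy, followed Cd59a at a lower count. It had 86 UMIs in suffix 1 and 68 in suffix 2 and stood at 0.244 and 0.354 in cDC1_Clec9a and at 0.243 and 0.269 in fibroblasts. Across the 22 names of suffix 1 the levels of Cd59a and Cd59b, as log2(level + 0.1), had a Pearson correlation of 0.91, and of 0.86 across the 15 names of suffix 2. The copies share a small part of their sequence, as given above, and how reads from it were assigned is not given in the sources used here.

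**Figure D5:**
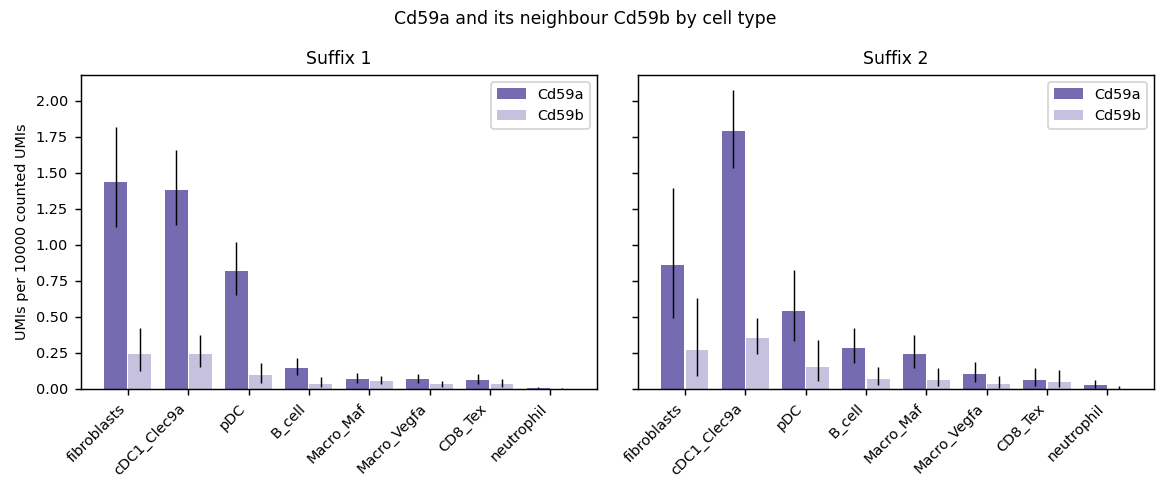
Level of Cd59a (dark) and its copy Cd59b (pale) in UMIs per 10000 counted UMIs under 8 cell type names, suffix 1 left and suffix 2 right, with exact 95% Poisson bars. Cd59a stands at 1.44, 1.38 and 0.821 in fibroblasts, cDC1_Clec9a and pDC of suffix 1 and at 0.861, 1.79 and 0.541 in suffix 2, and Cd59b reaches at most 0.354.

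Within fibroblasts the regulators were counted together in some cells. In suffix 1, 24 of the 26 fibroblasts with Cd59a and 20 of the 23 with Cd55 also held Serping1, and 3 cells held all 4 genes. Fibroblasts with Cd59a had a median of 6283.5 counted UMIs against 1055.5 in those without. Those with Cd55 had 5353 against 1164. In suffix 2, 6 of the 9 fibroblasts with Cd59a and 10 of the 12 with Cd55 held Serping1, beside 70.2% of all fibroblasts. There the median was 3019 with Cd59a against 3857 without, and 4555.5 with Cd55 against 2604 without. Cr1l was found in 39.3% of fibroblasts in suffix 1 and 38.3% in suffix 2, at levels of 2.07 [1.69, 2.51] and 1.72 [1.18, 2.43]. Across the 22 names of suffix 1 the correlation of log2 levels was 0.59 between Cd55 and Cr1l and 0.57 between Serping1 and Cd59a, and over the 15 names of suffix 2, which leave out the 47 fibroblasts, it was 0.39 and -0.34. Names of 1 suffix are taken to share a library, and the genes share a denominator.

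Most of the regulators were low in cells named epithelial and in neutrophils, though not there alone. In epithelial cells Serping1, Cd55 and Cd59a, 3 of the 4 members, were called lower in both suffixes, beside 12.1% of the genes tested in suffix 1 and 11% in suffix 2. In neutrophils the same 3 were called lower in suffix 1, beside 73.5% of the genes tested, and Serping1 and Cd59a in suffix 2, beside 66.7%. The neutrophil share is therefore near or below that of all genes, and S100a8 and S100a9 fill that denominator. Macro_Mgl2 of suffix 1 also had Serping1, Cd55 and Cd59a called lower, and the share of all genes is not given for it. The other cells of these ratios include the fibroblasts, and Serping1 was called lower under 20 of the 23 names in suffix 1 and 15 in suffix 2. Cd55 was called lower under 9 and 5 names and Cd59a under 3 and 3. These counts are therefore not read as traits of a name.

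The members can be set beside a list of 60 other complement genes, of which 16 were measured. In the order of the cascade, the C1q genes C1qa, C1qb and C1qc, whose products start the classical pathway, were highest in Macro_Maf at 186, 130 and 114 in suffix 1. Fcna and Fcnb, which encode lectin pathway ficolins, were highest in cDC1_Clec9a at 0.867 and in Mono_Nr4a1 at 0.727. Ptx3, a pentraxin that binds C1q, stood at 14.9 [13.9, 16.04] in fibroblasts against 0.00241 in other cells, and at 9.26 against 0.00596 in suffix 2. The receptor gene Cr2 stood at 6.15 in B cells and 2.52 in those of suffix 2, and Cd93 at 6.80 in Mono_Nr4a1. Masp2 (34 UMIs) and the C5 gene Hc (46 UMIs) were too rare for a call, and C8g, a terminal component, was highest in cDC2_Cd209a at 0.0617 without a call.

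Among the other regulators of that list, Thbd, which encodes thrombomodulin, was highest in Mono_Ly6c2 at 3.66 and stood at 1.54 in fibroblasts. Susd4 was highest in cDC2_Cd209a at 0.463. Cd46, a cofactor of factor I, stood at 0.0665 in B cells with 11 UMIs and was not called. Ptx3, Thbd and Cd59b were called higher in fibroblasts of suffix 1, where 16.7% of all genes tested were. In B cells 1 of the 14 list genes tested was called higher (Cr2), beside 16.1% of all genes tested, and in suffix 2 it was 1 of 10 (Cr2 again), beside 7.06%. In cDC1_Clec9a of suffix 1, 2 of 14 were called higher (Fcna and Cd59b), beside 10.4%, and both were called higher in suffix 2.

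The 5 genes most like each member across cell types were ranked in suffix 1. By the correlation of log2(level + 0.1) over the 22 names with 50 or more cells in suffix 1, Serping1 was most like Fibin, Svep1, Ildr2, Adamtsl1 and Pappa, all at 1.00 after rounding, a likeness that rests on the fibroblast name alone. Cd55 was most like Gm16152 (0.88), Ralgps2 (0.86), Ephx1 (0.85), Gm15675 (0.80) and Aff3 (0.80), with 0.57, 0.83, 0.64, 0.66 and 0.55 over the 15 names of suffix 2. Cr1l was most like Pigm (0.83), Macf1 (0.80), Pced1a (0.78), Ankrd44 (0.77) and Gm8251 (0.77), with 0.57, 0.62, 0.27, 0.69 and 0.42 in suffix 2. Cd59a was most like Gask1b (0.94), Kazn (0.94), Ank2 (0.92), Cd59b (0.91) and Plxna2 (0.90), with 0.80, 0.68, 0.68, 0.86 and 0.70 in suffix 2. These are descriptions of names that share a suffix and differ in depth.

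Between the suffixes, Cd55 differed under the most names. Its level differed beyond counting error under 8 of the 23 names, against 3 for Cr1l, 3 for Cd59a and 1 for Serping1. The same count over all genes was not made, so these counts are not read as a trait of the members. Rare genes could differ under few names. Serping1 had 20 and 18 UMIs outside fibroblasts, and Cd59a 366 and 280 in all. Under the macrophage names the summed B cell markers also differed, at 0.959 in suffix 1 and 0.230 in suffix 2. Cd55 was higher in suffix 1 in 7 of its 8 names, with Macro_Maf at 0.291 against 0.0121 and Macro_Vegfa at 0.288 against 0.0514. It was lower in CD8_Tex. Cr1l was higher in suffix 1 in CD4_Tcm, epithelial cells and neutrophils, the last with a log2 ratio of 0.58 [0.32, 0.85]. Cd59a was lower in suffix 1 in cDC1_Clec9a (log2 ratio -0.38 [-0.73, -0.02]), B cells and Macro_Maf. With suffixes not tied to samples, library and group cannot be told apart in these differences.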

How the data were processed

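Single-cell UMI counts per gene and cell were taken as deposited by the authors, whole numbers for 16383 cells. The submitters' processing notes list Cell Ranger and Seurat, with GRCm38 (mm10) as the build, and give no versions. Of the table, 4099 complete gene rows were used and 1 incomplete row was left out. Cell type names are the authors' deposited annotation, and how they were assigned is not given in the sources used here. No label ties barcode suffixes to samples, so the planned tests between groups were not run.

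For each name within a suffix, UMIs were added up and divided by the total to give a level per 10000. Intervals are exact Poisson for levels, Clopper-Pearson for shares and exact conditional binomial for ratios, at 95%. A 0 was given a floor of 3 counts. PCR and droplet effects lie outside these intervals. Thinning drew 500 UMIs per cell without replacement and left out shallower cells. No doublet caller was run, and whether doublets were removed is not stated. The ratio procedure was checked on simulated counts with 200 changed genes. The text names every member, every measured gene of the complement list with 20 or more UMIs in suffix 1, and the 5 genes most like each member. The members and lists were chosen with earlier results of these data known, and the splits by depth, marker or single cell were chosen after seeing the data. 1 cell type name and 1 gene of the complement list are not reported here. Alternatives changed the suffix, scaling, comparison cells, depth and weighting. The tools were scipy 1.17.1, Biopython 1.88 and matplotlib 3.10.9 with numpy 2.4.6 and pandas 2.3.3, run in Python 3.11.15, and promoter sequences are from RefSeq (GRCm38.p6), which matched 3 of the 4 members.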

Additional observations from a re-analysis of the deposited data

How the results depend on the processing

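All values here are log2 ratios of the highest cell type to other cells of suffix 1, unless stated. Of 35 alternatives, 19 kept direction and size within counting error, 15 moved beyond it and 1 reversed. In suffix 2 the ratio of Serping1 in fibroblasts was 11.49, of Cd55 in B cells 2.82 and of Cd59a in fibroblasts 1.45. In UMIs per cell it was 3.01 for Cd55, 4.48 for Cd59a and -0.13 for Cr1l in CD4_Treg, the reversal. Without S100a8 and S100a9 it was 4.02 for Cd55 and 0.78 for Cr1l. With cells of 500 or more UMIs only, Cd55 was at 4.01. Against the median of the other names, Cd59a was at 5.44, and for Serping1 this alternative was not analysed. Among alternatives added after seeing the data, Cd55 was at 4.60 without B cells of 5 or more macrophage marker UMIs. Cd59a was at 5.25 without cDC1_Clec9a and pDC among the other cells and at 3.05 without the fibroblast holding most of it. Thinned to 500 UMIs, shares of cells with a UMI were 36.8% for Cd55, 17.8% for Cr1l and 3.85% for Cd59a. Beyond what each alternative does by construction, the cause was not tested. No paired analysis was possible because no label ties barcode suffixes to samples, and the replicate block, DESeq2 and leave-one-out fits were not run. Depth limits Cd59a most, with 366 and 280 UMIs.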
